A study of Mus musculus with 17 samples.

Results

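The genes described are 10 immune checkpoint receptors and ligands: Pdcd1 (PD-1), Cd274 (PD-L1), Pdcd1lg2 (PD-L2), Ctla4, Cd80, Cd86, Lag3, Havcr2 (TIM-3), Lgals9 (galectin-9) and Tigit. They were chosen by name from the 21931 genes of the deposited table, and all 10 were among the 13005 genes with enough reads to be tested. Checkpoint receptors are surface proteins that restrain T cells after activation, and their ligands are carried by antigen-presenting cells, other myeloid cells and tumor cells. PD-1 binds PD-L1 and PD-L2, CTLA-4 competes with the costimulatory receptor CD28 for CD80 and CD86, LAG-3 binds MHC class II molecules, and TIGIT binds the poliovirus receptor family that CD226 also binds. In tumors these receptors mark activated and exhausted T cells, and interferon-gamma induces PD-L1.

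The tumors were grown from MC38, a mouse colon cancer line, placed under the skin on both sides of C57BL/6J mice of genotype WT, aged 6 to 8 weeks. In the cryoablation group (n = 8), one of the tumors was frozen 7 days after implantation in 2 cycles of 20 s according to the deposited labels, and in the control group (n = 9) no such treatment is labelled. RNA was taken in both groups from distant tumors at day 5, which for the cryoablation group were the contralateral, non-ablated tumors 5 days after freezing. The model is therefore a single transplanted line, and each library holds the RNA of tumor cells and host cells together. The text of the paper gives the group sizes the other way round and another freezing time than the labels. Groups here follow the labels, and if these were exchanged, each direction given below would turn. The paper gives Hba-a1, Hbb-bs and Hbb-bt as lower in control than in cryoablation tumors. Under the labels their log2 fold changes, cryoablation over control, were 1.75, 1.54 and 1.45. An exchange of labels was not tested. In such bulk samples, fewer cells of a type and less RNA per cell cannot be told apart.

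Total counts ranged from 13524899 to 17898672 a tumor. Cryoablation replicates 2, 4 and 5 stood apart from the other tumors on the first principal component, at -25.5, -31.5 and -31.3 against -9.52 to 16.7. In these 3 tumors, values fell with gene length by 0.268 to 0.391 log2 units per doubling of length, against slopes between -0.168 and 0.231 in the other 14. Fold changes of the checkpoint genes that moved by over 1.5 times without these tumors are given both ways. Among the markers of the labelled line, the epithelial gene Krt8 ranged from 0 to 609 counts a tumor and Cdh1 from 55 to 427. All 11 T cell markers and all 9 macrophage markers were detected in each tumor.

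Measured per length in FPKM (the read count scaled by gene length and by the total of the tumor), Lgals9 had the highest level at 49.7 ± 7.56 (SD over 17 tumors). Cd274 followed at 13.4 ± 8.03 FPKM and Pdcd1lg2 at 7.24 ± 6.73. Lgals9 was above Cd274 in 17 of 17 tumors, and Cd274 above Pdcd1lg2 in 14 of 17. Below these, Havcr2 had 6.71 ± 2.28 FPKM, Cd86 5.03 ± 1.49 and Lag3 4.57 ± 1.02. Tigit had 3.43 ± 2.12 FPKM, Pdcd1 2.51 ± 1.04, Cd80 1.72 ± 0.854 and Ctla4 1.69 ± 1.08. From Pdcd1lg2 down to Ctla4, the mean log2 difference between neighbours in this order was smaller than its SD over the tumors. Pdcd1lg2 exceeded Havcr2 in 7 of 17 tumors and Cd80 exceeded Ctla4 in 9 of 17. The ligands Lgals9 and Cd274 held the top of the order, and Cd80 and Ctla4 shared the bottom.

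**Figure D1:**
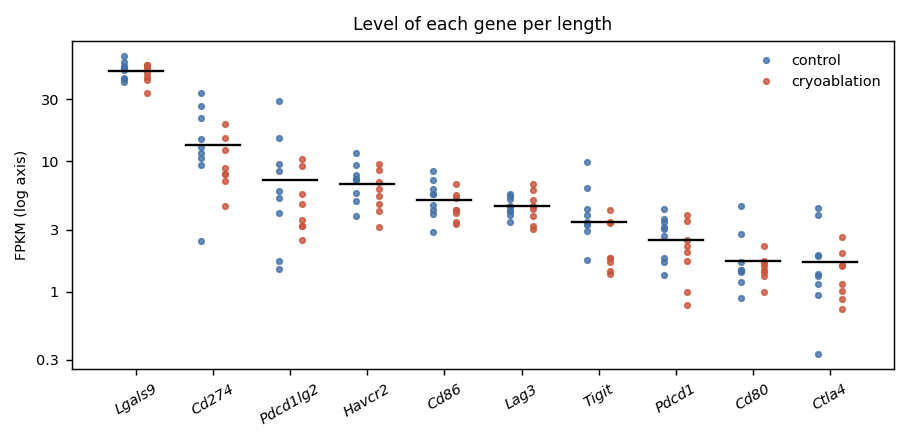
FPKM on a log axis for the 10 genes in 9 control tumors (blue) and 8 cryoablation tumors (red), ordered by the mean over 17 tumors (black bars). Lgals9 lies above the other genes at 49.7 FPKM, and Cd80 and Ctla4 lie lowest at 1.72 and 1.69 FPKM.

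No gene passed the test for a difference between the groups after correction for multiple testing. In edgeR's quasi-likelihood test with Benjamini-Hochberg adjustment, 0 of 13005 genes (0%) had an adjusted p under 0.05, and 0 of the 10 checkpoint genes did. DESeq2 also called 0 genes, and had 881 with an unadjusted p under 0.05. At an unadjusted p under 0.05, 1 of the 10 checkpoint genes was counted, Tigit, beside 639 of 13005 genes (4.91%), and 152 genes (1.17%) were counted as lower in the cryoablation group. The fold change was below 0 for 8 of the 10 genes and above 0 for Lag3 and Lgals9. Their median log2 fold change was -0.19, against -0.01 over all genes tested, of which 52.0% were below 0. With limma's voom 9 of 10 were below 0, and without cryoablation replicates 2, 4 and 5 all 10 were, with a median of -0.27. Without control replicate 4, 7 were below 0 and 3 above, with a median of -0.088. For each of the 10 genes the ranges of the groups overlapped, and no gene of those tested (0%) had ranges that did not overlap.

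**Figure D2:**
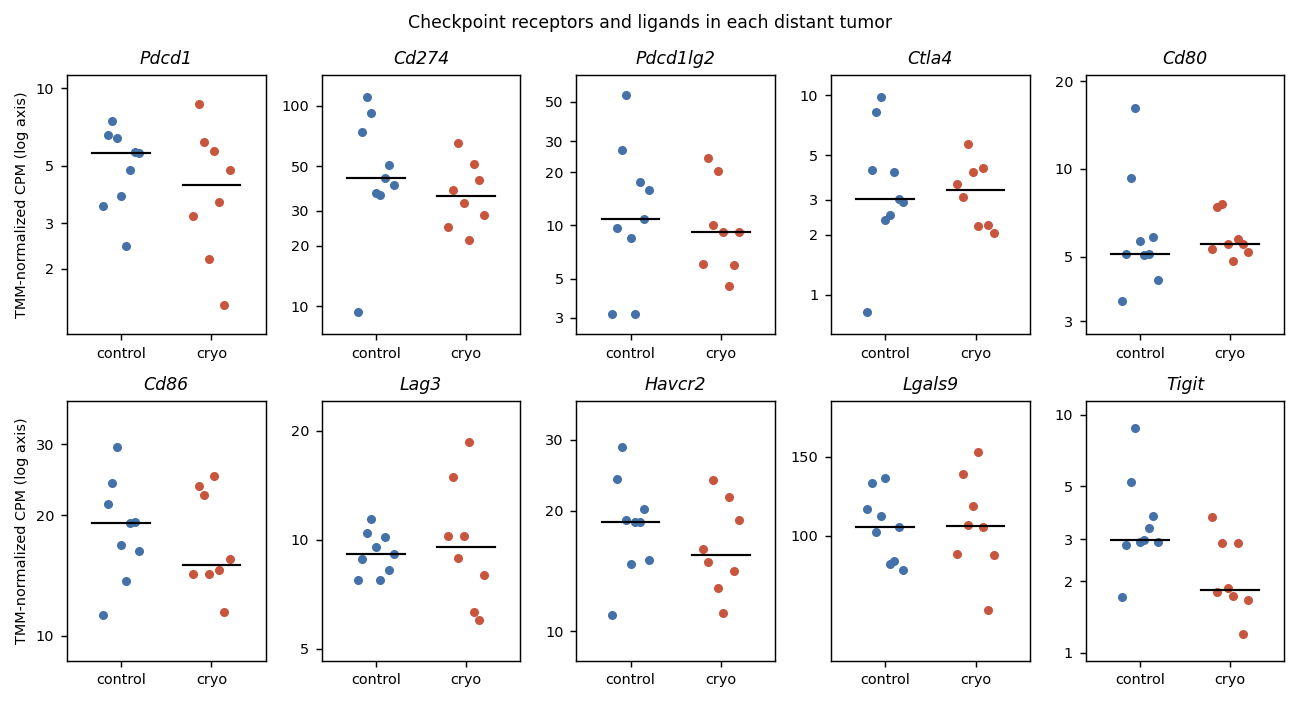
TMM-normalized CPM (read counts scaled by the effective library size, log axis) of each gene in each control tumor (blue, n = 9) and cryoablation tumor (red, n = 8), with group medians as black bars. The groups overlap in each panel, and the Tigit medians are 2.99 and 1.84 CPM.

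TIGIT is an inhibitory receptor of T cells and NK cells, and its gene (Tigit, ENSMUSG00000071552) is listed on chromosome 16 from 43469230 to 43484509. This and the other gene positions are those of the deposited table, whose build could not be told. In TMM-normalized CPM (read counts relative to the effective library size), Tigit ranged from 1.72 to 8.80 in the control group with a median of 2.99. In the cryoablation group it ranged from 1.21 to 3.73 with a median of 1.84. Control replicates 4 and 3 were the highest, and 7 of 8 cryoablation tumors were under the control median, with cryoablation replicate 7 the lowest. The means were 3.83 ± 2.08 CPM (SD, n = 9) and 2.23 ± 0.849 CPM (SD, n = 8), a log2 fold change of -0.78 (SE 0.30, 95% interval -1.40 to -0.16, edgeR p = 0.0171, adjusted p = 0.728, exact permutation p on log2 CPM = 0.0252). With 1 tumor left out in turn, the unadjusted edgeR p stayed under 0.05 in 17 of 17 fits, and the log2 fold change lay between -0.93 and -0.53, the smallest change being without control replicate 4. Without cryoablation replicates 2, 4 and 5, it was -0.64 and the unadjusted p was no longer under 0.05. Tigit rested on 18 to 136 reads a tumor and had the shortest listed length of the 10 genes, 919 bases. With an offset for gene length in the fit, its log2 fold change was -0.95 (edgeR unadjusted p = 0.0198, adjusted p = 0.714).

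The known partners of TIGIT were examined beside it. Cd226, the activating receptor that shares its ligands, had a log2 fold change of -0.52 (SE 0.43, edgeR adjusted p = 0.740, exact permutation p = 0.609), which was -0.035 without control replicate 4. The ligand genes Pvr and Nectin2 had values of 0.07 (SE 0.11) and 0.14 (SE 0.16), with edgeR adjusted p of 0.817 and 0.781, and without cryoablation replicates 2, 4 and 5 they were at 0.12 and -0.16. Taken relative to the T cell score, the mean log2 CPM of 11 T cell markers, Tigit was at -0.60 ± 0.21 (SD, n = 9) in the control group and -1.14 ± 0.78 (SD, n = 8) in the cryoablation group. This difference of -0.54 gave p = 0.0541 in the exact permutation test and 0.812 after adjustment over 15 within-tumor differences. The control tumors ranged from -0.94 to -0.28 and the cryoablation tumors from -2.38 to -0.25. Cryoablation replicates 2 and 5 were lowest, with Tigit at 0.95 and 0.90 log2 CPM and T cell scores of 3.33 and 3.12. The difference rests largely on these tumors. The T cell score itself differed by -0.15 between the groups (exact permutation test, p = 0.657). This value depends on few tumors, since control replicate 4 had the highest score, 3.88, followed by cryoablation replicates 2 and 5.

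PD-1 is the inhibitory receptor through which PD-L1 and PD-L2 act, and Pdcd1 (ENSMUSG00000026285) is listed on chromosome 1 from 93966027 to 93980278. Pdcd1 ranged from 2.45 to 7.50 CPM in the control group with a median of 5.60, and from 1.45 to 8.69 CPM in the cryoablation group with a median of 4.24. The cryoablation group held both the highest tumor, replicate 2, and the lowest, replicate 7. The means were 5.15 ± 1.64 CPM (SD, n = 9) and 4.48 ± 2.36 CPM (SD, n = 8), and the log2 fold change was -0.21 (SE 0.30, 95% interval -0.84 to 0.42, edgeR adjusted p = 0.810). It was -0.42 without cryoablation replicates 2, 4 and 5 and -0.081 without cryoablation replicate 7. Relative to the T cell score, the difference between groups was -0.16 (exact permutation test, p = 0.470).

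PD-L1 is the ligand of PD-1 found on tumor cells and myeloid cells, and Cd274 (ENSMUSG00000016496) is listed on chromosome 19 from 29344855 to 29365495. Cd274 ranged from 9.41 to 110.2 CPM in the control group with a median of 43.7. In the cryoablation group it ranged from 21.5 to 65.0 CPM with a median of 35.4. The control group held the lowest tumor, replicate 1, and the 3 highest, replicates 3, 4 and 2, so its spread enclosed the whole cryoablation group. The means were 54.8 ± 31.4 CPM (SD, n = 9) and 38.1 ± 14.6 CPM (SD, n = 8), and the log2 fold change was -0.52 (SE 0.34, 95% interval -1.25 to 0.20, edgeR adjusted p = 0.728). Without control replicate 1 it was -0.66 with an unadjusted p under 0.05, so that 2 of the 10 genes were then counted. That fit counted 1284 of 12985 genes, against 639 of 13005 with all tumors. Without control replicate 3 the Cd274 value was -0.34.

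PD-L2 is the second ligand of PD-1, carried mainly by dendritic cells and macrophages, and Pdcd1lg2 (ENSMUSG00000016498) is listed near Cd274 on chromosome 19 from 29388319 to 29448561. It varied most of the 10 genes, 17.5-fold between the lowest and the highest tumor. Pdcd1lg2 ranged from 3.14 to 55.0 CPM in the control group with a median of 10.9, and from 4.55 to 24.0 CPM in the cryoablation group with a median of 9.15. Control replicate 4 was far above the other tumors, and 6 of 8 cryoablation tumors were under the control median. The means were 16.7 ± 16.2 CPM (SD, n = 9) and 11.2 ± 7.12 CPM (SD, n = 8), and the log2 fold change was -0.59 (SE 0.50, 95% interval -1.65 to 0.46, edgeR adjusted p = 0.746). It was -0.12 without control replicate 4 and -1.23 (unadjusted p under 0.05) without cryoablation replicates 2, 4 and 5. The difference Cd274 minus Pdcd1lg2 within a tumor was 1.96 ± 0.85 log2 units (SD, n = 9) in the control group and 1.89 ± 1.03 (SD, n = 8) in the cryoablation group (exact permutation test, p = 0.882).

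The upstream sequences of the ligand genes Cd274, Pdcd1lg2 and Lgals9 are shown because interferon-gamma induces PD-L1, and each gene is set against an interferon-gamma response score below. Each is the 250 bases before the start of the gene in RefSeq on GRCm38.p6, 5′ to 3′ on the gene's strand, in lower case with capitals for a match to the interferon-stimulated response element core. They lie at chr19:29367188-29367437 on the plus strand, chr19:29410669-29410918 on the plus strand and chr11:78984925-78985174 on the minus strand.
Cd274: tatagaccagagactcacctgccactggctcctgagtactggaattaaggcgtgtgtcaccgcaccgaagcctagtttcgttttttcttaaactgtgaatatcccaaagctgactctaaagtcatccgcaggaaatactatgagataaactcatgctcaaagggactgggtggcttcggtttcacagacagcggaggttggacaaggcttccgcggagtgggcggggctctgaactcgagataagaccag
Pdcd1lg2: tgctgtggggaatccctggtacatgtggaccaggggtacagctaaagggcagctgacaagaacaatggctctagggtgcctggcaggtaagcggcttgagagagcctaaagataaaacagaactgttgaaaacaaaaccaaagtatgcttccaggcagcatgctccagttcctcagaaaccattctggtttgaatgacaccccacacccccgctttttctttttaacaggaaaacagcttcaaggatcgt
Lgals9: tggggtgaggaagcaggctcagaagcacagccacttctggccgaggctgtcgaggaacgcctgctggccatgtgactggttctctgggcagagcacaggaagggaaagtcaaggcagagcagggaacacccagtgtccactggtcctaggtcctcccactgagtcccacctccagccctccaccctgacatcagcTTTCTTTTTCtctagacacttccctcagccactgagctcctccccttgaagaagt
Of the 10 genes, 8 had such a sequence in the RefSeq table. The core, GAAA followed by any 2 bases and GAAA, was searched on both strands and was in 1 of these 8, Lgals9, at base -55, and in 2.98% of 32851 promoters of the same length. The gamma-activated site core, TTC followed by any 3 bases and GAA, was in 0 of 8 and in 7.02% of promoters, and an NF-kappaB-like motif, GGGA followed by any 1 base and TTTCC, was in 0 of 8 and in 0.356%. A match describes the letters of this window only.

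CTLA-4 is an inhibitory receptor of activated and regulatory T cells, and Ctla4 (ENSMUSG00000026011) is listed on chromosome 1 from 60926159 to 60954991. Ctla4 ranged from 0.822 to 9.77 CPM in the control group with a median of 3.01, and from 2.03 to 5.68 CPM in the cryoablation group with a median of 3.35. The control group again enclosed the cryoablation group, with replicate 1 lowest and replicate 4 highest. The means were 4.22 ± 2.92 CPM (SD, n = 9) and 3.41 ± 1.27 CPM (SD, n = 8), and the log2 fold change was -0.31 (SE 0.37, 95% interval -1.08 to 0.47, edgeR adjusted p = 0.789). It was -0.058 without control replicate 4 and -0.13 without control replicate 3. Ctla4 minus Foxp3, the gene of the transcription factor of regulatory T cells, was 1.11 ± 0.89 log2 units (SD, n = 9) in the control group and 1.25 ± 0.83 (SD, n = 8) in the cryoablation group (exact permutation test, p = 0.753). Foxp3 itself was at 1.73 ± 0.908 CPM (SD, n = 9) and 1.39 ± 0.529 CPM (SD, n = 8).

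CD80 and CD86 are ligands of both CD28 and CTLA-4 on antigen-presenting cells, and their genes (ENSMUSG00000075122 and ENSMUSG00000022901) are listed on chromosome 16 from 38275923 to 38316697 and from 36424231 to 36486443. Cd80 ranged from 3.51 to 16.2 CPM in the control group with a median of 5.09, and from 4.82 to 7.59 CPM in the cryoablation group with a median of 5.54. Control replicate 4 stood far above the rest, while 7 of 8 cryoablation tumors were over the control median. The Cd80 means were 6.67 ± 3.94 CPM (SD, n = 9) and 5.89 ± 1.03 CPM (SD, n = 8), with a log2 fold change of -0.18 (SE 0.26, edgeR adjusted p = 0.809) that was 0.10 without control replicate 4. Cd86 ranged from 11.3 to 29.6 CPM in the control group with a median of 19.1, and from 11.5 to 24.99 CPM in the cryoablation group with a median of 15.0. The cryoablation tumors fell into 3 above the control median and 5 below it. The Cd86 means were 19.0 ± 5.52 CPM (SD, n = 9) and 17.7 ± 5.20 CPM (SD, n = 8), with a log2 fold change of -0.11 (SE 0.19, edgeR adjusted p = 0.831), which was -0.29 without cryoablation replicates 2, 4 and 5 and -0.015 without control replicate 4. Cd28, their activating receptor, had a log2 fold change of -0.73 (SE 0.39, edgeR adjusted p = 0.728, exact permutation p = 0.235), and was at -0.41 without control replicate 4. Cd80 minus Cd86 differed by 0.07 log2 units between the groups (exact permutation test, p = 0.707).

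LAG-3 is an inhibitory receptor of T cells that binds MHC class II, and Lag3 (ENSMUSG00000030124) is listed on chromosome 6 from 124881324 to 124888668. Lag3 ranged from 7.77 to 11.5 CPM in the control group with a median of 9.12, and from 6.03 to 18.6 CPM in the cryoablation group with a median of 9.56. Here the cryoablation group was the wider one, with replicates 5 and 2 above and replicates 7 and 6 below all control tumors. The means were 9.27 ± 1.27 CPM (SD, n = 9) and 10.4 ± 4.34 CPM (SD, n = 8), and the log2 fold change was 0.16 (SE 0.20, 95% interval -0.25 to 0.57, edgeR adjusted p = 0.792). It was -0.24 without cryoablation replicates 2, 4 and 5, -0.01 without cryoablation replicate 5 alone, and -0.07 with limma's voom.

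TIM-3 is an inhibitory receptor found on T cells and on myeloid cells, and galectin-9 is a lectin described as one of its ligands. Havcr2 (ENSMUSG00000020399) and Lgals9 (ENSMUSG00000001123) are listed on chromosome 11 from 46345762 to 46372082 and from 78853800 to 78875772. Havcr2 ranged from 10.98 to 28.9 CPM in the control group with a median of 18.7, and from 11.1 to 23.8 CPM in the cryoablation group with a median of 15.5. The groups spanned nearly the same range. The Havcr2 means were 18.9 ± 5.27 CPM (SD, n = 9) and 16.7 ± 4.42 CPM (SD, n = 8), with a log2 fold change of -0.18 (SE 0.18, 95% interval -0.56 to 0.21, edgeR adjusted p = 0.770). It was -0.0048 without cryoablation replicates 2, 4 and 5 and -0.085 without control replicate 3. Lgals9 ranged from 83.7 to 134.3 CPM in the control group with a median of 104.7, and from 68.2 to 154.0 CPM in the cryoablation group with a median of 104.9. The medians nearly coincided, and Lgals9 was the least variable of the 10 genes, 2.26-fold between its extremes. The Lgals9 means were 106.2 ± 18.6 CPM (SD, n = 9) and 108.4 ± 27.4 CPM (SD, n = 8), with a log2 fold change of 0.03 (SE 0.15, 95% interval -0.28 to 0.34, edgeR adjusted p = 0.940), and -0.21 without cryoablation replicates 2, 4 and 5.

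**Figure D3:**
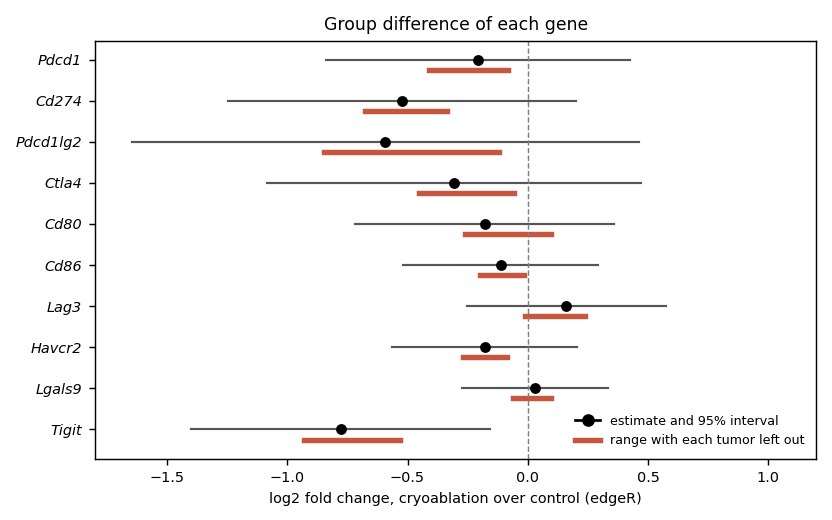
The edgeR log2 fold change of each gene, cryoablation over control, as a point with its 95% interval (grey line), and the range of the estimate when each of the 17 tumors is left out in turn (red bar). Among the intervals, that of Tigit alone lies wholly below 0 (-1.40 to -0.16, unadjusted), and the red bars of Cd80, Lag3 and Lgals9 cross 0.

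Control replicate 1 had the lowest control value for 8 of the 10 genes, the exceptions being Pdcd1 and Lgals9. Control replicate 4 had the highest control value of Pdcd1lg2, Ctla4, Cd80, Cd86, Lag3 and Tigit, and control replicate 3 that of Pdcd1, Cd274 and Havcr2. In the cryoablation group, replicate 7 was lowest for Pdcd1, Lag3, Lgals9, Tigit and Cd86. The summed T cell markers ranged from 36.4 to 180.5 CPM in the control group, with replicate 4 highest, and from 27.7 to 129.4 CPM in the cryoablation group, with replicate 7 lowest.

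**Figure D4:**
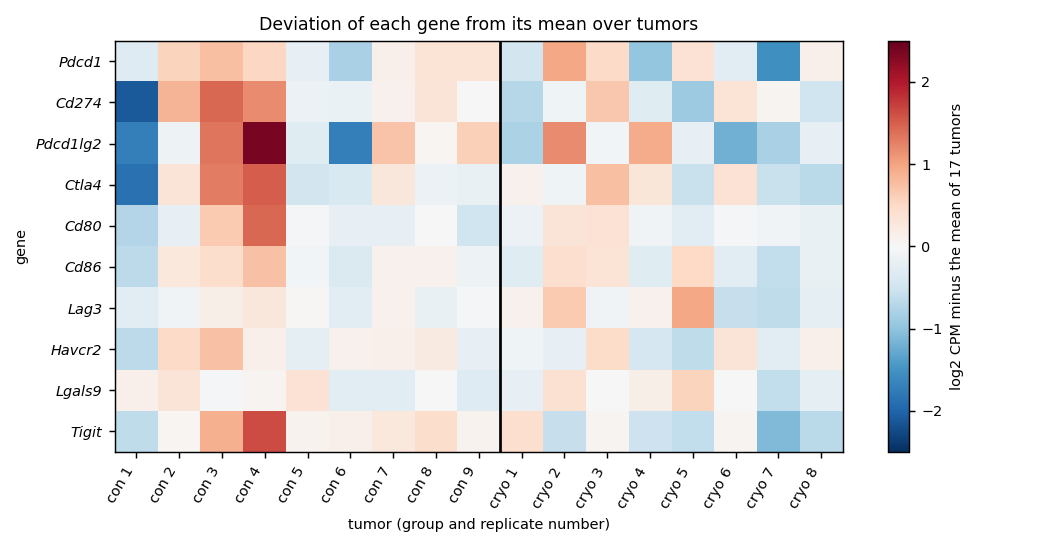
Log2 CPM of each gene minus its mean over 17 tumors (color scale), with control tumors (con 1 to 9) left and cryoablation tumors (cryo 1 to 8) right of the black line. Control replicate 1 is low and control replicates 3 and 4 are high for most genes.

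The genes were next related to 3 scores across the 17 tumors: the T cell score, the macrophage score (mean log2 CPM of 9 markers) and the interferon-gamma response score (12 genes such as Irf1 and Cxcl9). These scores differed between the groups by -0.15, -0.09 and -0.15 log2 units (exact permutation tests, p = 0.657, 0.665 and 0.548). Control replicate 4 had the highest T cell and macrophage scores, 3.88 and 7.76. Cryoablation replicates 2 and 5 were next, at 3.33 and 3.12 for T cells and 7.33 and 7.32 for macrophages. The T cell and macrophage differences therefore depend on these few tumors. The summed macrophage markers lay between 747.5 and 3529 CPM over all tumors, with cryoablation replicate 7 lowest and replicate 5 highest. The erythroid list of 4 genes was 1.42 log2 units higher in the cryoablation group (exact permutation test, p = 0.00592), at 24.8 to 172.7 CPM summed against 6.16 to 74.1 CPM, with none of its genes at 0 throughout. The list holds Hba-a1, Hbb-bs and Hbb-bt, which the paper had named from this same comparison, so its p is no independent support. The part of the erythroid genes in the values of the checkpoint genes was not tested. Of the 11 T cell markers, 4 had a log2 fold change above 0 and 7 below, with a median of -0.22, and of the 9 macrophage markers 4 were above 0 and 5 below, with a median of -0.016. Among the 5 epithelial markers, 4 were above 0 and 1 below (median 1.65). Dendritic cell markers had 1 above and 5 below (median -0.39), and NK cell markers 1 above and 3 below (median -0.25). The group differences of these lists had exact permutation p of 0.386, 0.223 and 0.850. Cd3e and Cd8a had log2 fold changes of -0.29 (SE 0.37) and -0.36 (SE 0.35), with edgeR adjusted p of 0.794 and 0.765. Cd3e was at -0.0041 without control replicate 4 and -0.68 without cryoablation replicates 2, 4 and 5, and Cd8a at -0.23 without the latter. Adgre1, the macrophage gene of F4/80, had a log2 fold change of -0.69 (SE 0.29, edgeR adjusted p = 0.728, unadjusted p under 0.05), while the macrophage gene C1qa had one of 0.52 (SE 0.35). Adgre1 was at -0.25 with DESeq2 and -0.28 without control replicate 4, with an unadjusted p over 0.05 in both. Ptprc, the leukocyte gene of CD45, had a value of -0.52 (SE 0.33, edgeR adjusted p = 0.728), which was -0.27 without cryoablation replicates 2, 4 and 5. Foxp3 had one of -0.32 (SE 0.34, edgeR adjusted p = 0.772), which was -0.13 without control replicate 4.

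Of the 30 relations, 20 had a Benjamini-Hochberg adjusted permutation p under 0.05 by Pearson's r and 16 by Spearman's rho. Cd274 followed the interferon-gamma response score most closely (r = 0.91, permutation p = 2e-05, adjusted p = 0.0003; rho = 0.88, p = 1e-05, adjusted p = 0.00015). The r was 0.98 in the control tumors, 0.71 in the cryoablation tumors and 0.82 without the 2 tumors farthest from the median score, control replicates 1 and 3. With the other scores, Cd274 had r = 0.46 for T cells (rho = 0.47, permutation p = 0.0643 and 0.0597, adjusted p = 0.0829 and 0.0905) and r = 0.10 for macrophages (rho = 0.11, permutation p = 0.685 and 0.666, adjusted p = 0.699 and 0.666). Cd274 and the interferon-gamma genes varied together over the tumors, with control replicate 1 the lowest in both. Ctla4 also had its highest r with this score (r = 0.83, permutation p = 6e-05, adjusted p = 0.0006; rho = 0.78, p = 0.00037, adjusted p = 0.00185), and r was 0.66 without the same 2 tumors. Havcr2 had r = 0.77 with it (permutation p = 0.00039, adjusted p = 0.00186; rho = 0.75, p = 0.00087, adjusted p = 0.0029) and 0.62 without them.

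Cd86 followed the T cell score (r = 0.94, permutation p = 1e-05, the smallest that the resamples can give, adjusted p = 0.0003; rho = 0.91, p = 1e-05, adjusted p = 0.00015). The r was 0.94 in the control tumors, 0.94 in the cryoablation tumors and 0.92 without control replicate 4 and cryoablation replicate 7, the farthest in T cell score. Pdcd1, a gene of activated T cells, had r = 0.79 with the T cell score (permutation p = 0.00022, adjusted p = 0.00165; rho = 0.82, p = 0.00011, adjusted p = 0.000825) and 0.76 without these 2 tumors. Lag3 had r = 0.78 with the macrophage score (permutation p = 0.00035, adjusted p = 0.00186; rho = 0.86, p = 4e-05, adjusted p = 0.0004) and 0.83 without them, but 0.58 with the length trend of each tumor removed. With the T cell score, Lag3 had r = 0.75 (permutation p = 0.00058, adjusted p = 0.00186; rho = 0.76, p = 0.00071, adjusted p = 0.00266), 0.77 without the 2 tumors and 0.81 with the length trend removed. Lag3 and the interferon-gamma response score had r = 0.18 (rho = 0.24, permutation p = 0.493 and 0.355, adjusted p = 0.529 and 0.380). Pdcd1lg2 had r = 0.76 with the T cell score (permutation p = 0.00048, adjusted p = 0.00186; rho = 0.76, p = 0.00055, adjusted p = 0.00236) and 0.66 without the 2 tumors. With the macrophage score, Pdcd1lg2 had r = 0.74 (permutation p = 0.00073, adjusted p = 0.00199; rho = 0.82, p = 0.00014, adjusted p = 0.00084) and 0.67 without them. With the interferon-gamma response score, Pdcd1lg2 had r = 0.57 (permutation p = 0.0172, adjusted p = 0.0271; rho = 0.55, p = 0.0221, adjusted p = 0.0415), and 0.36 without control replicates 1 and 3.

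The remaining genes had looser relations. Tigit had r = 0.59 with the T cell score (permutation p = 0.0134, adjusted p = 0.0224; rho = 0.46, p = 0.0678, adjusted p = 0.0969), at 0.95 in the control tumors and 0.20 in the cryoablation tumors. Without control replicate 4 and cryoablation replicate 7, r was 0.10, so that the pooled relation rests on these tumors. Cryoablation replicates 2 and 5 had high T cell scores, 3.33 and 3.12, and low Tigit, 0.95 and 0.90 log2 CPM. Their slopes were -0.301 and -0.391 log2 units per doubling of gene length. Cryoablation replicate 5 also had the lowest Ptprc of all tumors, 29.6 CPM. Without cryoablation replicates 2, 4 and 5, r between Tigit and the T cell score was 0.92. With the length trend removed it was 0.31 (permutation p = 0.220, adjusted p = 0.264). Cd80 had r = 0.70 with the T cell score (permutation p = 0.00252, adjusted p = 0.00582; rho = 0.47, p = 0.0603, adjusted p = 0.0905) and 0.58 without control replicate 4 and cryoablation replicate 7. Lgals9 had r = 0.56 with the macrophage score (permutation p = 0.0192, adjusted p = 0.0287; rho = 0.47, p = 0.0575, adjusted p = 0.0905), at 0.08 in the control tumors, 0.91 in the cryoablation tumors and 0.10 with the length trend removed. Without the 2 farthest tumors it was 0.46. With the interferon-gamma response score, Lgals9 had r = 0.28 (permutation p = 0.285, adjusted p = 0.328; rho = 0.25, p = 0.342, adjusted p = 0.380), at 0.48 without control replicates 1 and 3 and 0.59 with the length trend removed. Whether r differed between the groups was not tested.

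**Figure D5:**
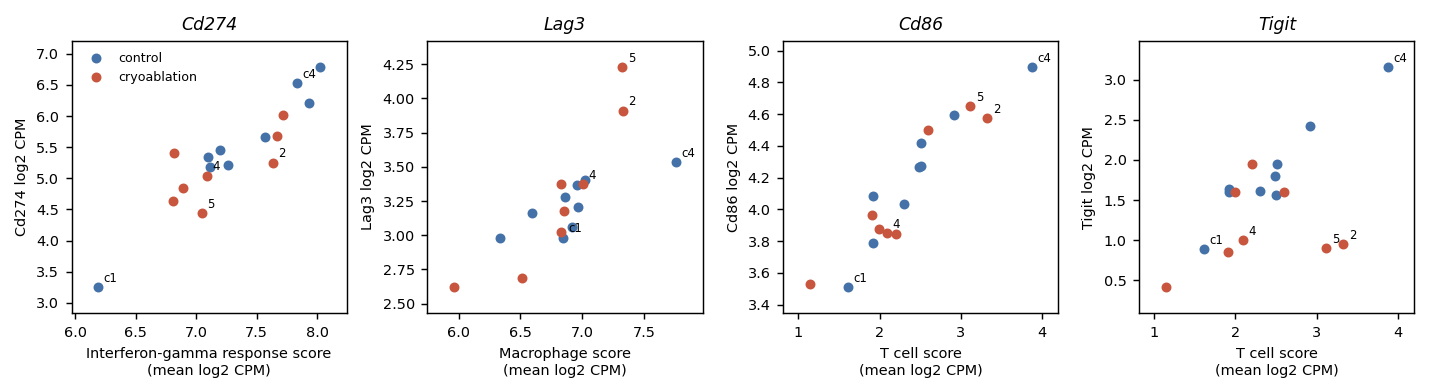
Log2 CPM of Cd274, Lag3, Cd86 and Tigit against a score (mean log2 CPM of its genes) in control tumors (blue, n = 9) and cryoablation tumors (red, n = 8), with control replicates 1 and 4 (c1, c4) and cryoablation replicates 2, 4 and 5 marked. Cd274 rises with the interferon-gamma response score (r = 0.91) and Cd86 with the T cell score (r = 0.94). Tigit is low in cryoablation replicates 2 and 5, which have high T cell scores and values that fell with gene length.

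Receptors and their own ligands were compared over the tumors, as 5 of the 45 pairs of the 10 genes. Over all pairs, r ranged from -0.27 to 0.88 with a median of 0.53, and 22 had an adjusted permutation p under 0.05 by Pearson's r and 11 by Spearman's rho. Ctla4 and Cd80 had r = 0.81 (permutation p = 0.00012, adjusted p = 0.00135; rho = 0.67, p = 0.00393, adjusted p = 0.0253) and 0.65 without the 2 tumors farthest in Ctla4, control replicates 1 and 4. Ctla4 and Cd86 had r = 0.66 (permutation p = 0.00323, adjusted p = 0.0112; rho = 0.49, p = 0.0471, adjusted p = 0.0954) and 0.40 without them. Pdcd1 had r = 0.56 with Pdcd1lg2 (permutation p = 0.0205, adjusted p = 0.0462; rho = 0.65, p = 0.00655, adjusted p = 0.0327), and 0.80 without cryoablation replicates 4 and 7. With Cd274 it had r = 0.39 (permutation p = 0.125, adjusted p = 0.173; rho = 0.52, p = 0.0330, adjusted p = 0.0927) and 0.52 without them. Havcr2 and Lgals9 had r = -0.19 (permutation p = 0.462, adjusted p = 0.534; rho = -0.21, p = 0.423, adjusted p = 0.501) and 0.10 without control replicate 1 and cryoablation replicate 5. Within the control and the cryoablation tumors, r was 0.85 and 0.59 for Ctla4 with Cd80, and 0.95 and 0.11 for Ctla4 with Cd86. For Pdcd1 it was 0.81 and 0.38 with Pdcd1lg2, and 0.71 and 0.0090 with Cd274. For Havcr2 with Lgals9 it was -0.040 and -0.33. Whether these values differed between the groups was not tested.

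For each gene, the most similar genes were sought by Pearson's r of log2 CPM over the 17 tumors among 12338 genes, as a description with no test. Cd274 was closest to Samhd1 (r = 0.96), Cxcl10 (0.95) and Snx10 (0.95), of which Cxcl10 is a chemokine induced by interferon-gamma. Pdcd1lg2 was closest to Arg1 (r = 0.95), Ccl9 (0.94) and Ccl11 (0.93), of which Arg1 encodes arginase, an enzyme of alternatively activated macrophages. Lag3 was closest to Ncf4 (r = 0.92), Cd74 (0.92) and H2-Eb1 (0.91), the last of which encodes an MHC class II chain. Pdcd1 was closest to Sh2d2a (r = 0.88), Cd5 (0.85) and Zfp467 (0.83), and Tigit to Il21r (0.93), Ms4a4b (0.92) and Inpp5d (0.91). Among the genes closest to Ctla4 were Clcn7 (r = 0.95) and Fgl2 (0.92). Havcr2 was closest to Gvin2 (r = 0.92), Irgm2 (0.92) and Irf9 (0.91), and Lgals9 to Ifi27l2a (0.94), Ly6e (0.94) and Apod (0.93). Cd80 was closest to M6pr (r = 0.94), Satb1 (0.89) and P2ry10 (0.88), and Cd86 to Slc15a3 (0.96), Shisa5 (0.95) and Slc11a1 (0.94). No similar gene was shared between 2 of the 10.

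Other co-inhibitory and costimulatory genes gave the background of the pathway. Of 31 such genes, 25 were tested, and their median log2 fold change was -0.15, with 17 below 0 and 8 above. In edgeR, 0 of the 25 had an adjusted p under 0.05, as did 0 of 13005 genes (0%). At an unadjusted p under 0.05, 1 was counted beside 639 of 13005 genes (4.91%). It was Tnfsf9, the ligand of the costimulatory receptor 4-1BB. Tnfsf9 had means of 11.4 ± 1.68 CPM (SD, control, n = 9) and 14.4 ± 3.85 CPM (SD, cryoablation, n = 8), with a log2 fold change of 0.34 (SE 0.15, edgeR adjusted p = 0.728, exact permutation p = 0.0640). It was 0.11 without cryoablation replicates 2, 4 and 5, 0.012 with limma's voom and 0.14 with an offset for gene length. Vtcn1, Fgl1, Timd4, Tnfsf18, Cd40lg and Cd70 had too few reads to be tested.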

How the data were processed

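Bulk RNA sequencing of 17 distant tumors was analysed, grouped by the deposited labels into 9 control and 8 cryoablation tumors. The authors deposited a count of reads per gene, not normalized, and FPKM. The deposited FPKM equalled the count divided by listed gene length and total count within 0.1% for 100% of values above 0, and were used only to compare levels between genes. The methods describe bead capture of mRNA and NovaSeq sequencing, and the labels name a SMARTER mRNA-Seq kit. The aligner, counting program and strandedness are not given in the sources used here, so reads of overlapping or antisense genes cannot be told apart. The submitters' processing notes name GRCm38 (mm10), but the listed start and end equalled those of GENCODE M21 for 512 of 21827 genes, so listed positions are given as they stand, with no build named. Value columns without a sample numbered 0.

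Counts were normalized by TMM, filtered by filterByExpr and tested with edgeR 4.0.16 in R 4.3.3 (quasi-likelihood F test, group as the only term, Benjamini-Hochberg adjustment over 13005 genes). The SE was taken as the size of the log2 fold change over the root of F. Single values, as log2 CPM with a prior count of 2, were compared by exact permutation tests (two-sided) over 24310 assignments of the tumors, whose smallest p is 4.11e-05. Correlations used 100000 resamples, and all assignments where n was under 10. Nothing in the sources says that the tumors of a group came from separate cages or days, so p-values measure the spread between these tumors. No 2 of the 136 pairs of tumors had the same counts within sampling noise. The numbers of the replicates correlated between -0.51 and 0.642 across groups and were not taken as pairs.

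The members and lists were chosen with earlier results of these data known. All 10 members were named, with Cd28, Cd226, Pvr, Nectin2, Ptprc, Cd3e, Cd8a, Foxp3, Adgre1, listed genes with an unadjusted p under 0.05 and the 3 most similar genes with a mean of at least 20 counts. Of these, 1 gene is not reported here. Alternatives were DESeq2 1.42.0, limma 3.58.1 voom with sample quality weights, other normalizations and filters, a replicate block, a gene length offset (splines, 4 degrees of freedom), a prior count of 0.5, and leaving out tumors. Receptor and ligand pairs and the removal of the length trend from log2 CPM were added after seeing the data. The scripts were tested on simulated counts.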

Additional observations from a re-analysis of the deposited data

Results flagged for a closer look

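In 5 of the 50 groups of values examined, 1 tumor lay apart from the rest of its group by Dixon's criterion, where chance gives about 1 in 20 groups. Cd274 was at 3.25 log2 CPM in control replicate 1, and the nearest control tumor was at 5.18. In the same tumor, Cd274 minus the macrophage score was -3.59, with the nearest at -1.65, and Cd274 minus the interferon-gamma response score was -2.94, with the nearest at -2.06. These 3 values share the low Cd274 level of control replicate 1. Havcr2 minus the T cell score was 0.37 in control replicate 4, with the nearest at 1.62. Ctla4 minus Foxp3 was 3.04 in cryoablation replicate 4, with the nearest at 1.59.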

How the results depend on the processing

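The log2 fold changes of Pdcd1, Cd274, Pdcd1lg2, Ctla4, Havcr2, Tigit and Cd86 were below 0 in each of the 27 fits, and 0 of the 10 genes had an adjusted p under 0.05 in any of them. With limma's voom, the log2 fold change was 0.014 for Cd80, -0.070 for Lag3, -0.057 for Lgals9 and -0.035 for Pvr. With a gene length offset it was -0.00079 for Lag3 and -0.090 for Lgals9. With the replicate block, in which equal numbers would pair the tumors, it was -0.031 for Lgals9 and -0.76 for Tigit, whose unadjusted p remained under 0.05. The block also gave -0.26 for Pdcd1lg2, -0.18 for Ctla4, 0.077 for Lag3 and -0.10 for Cd80. Without cryoablation replicates 2, 4 and 5 the log2 fold change was -0.24 for Lag3, -0.21 for Lgals9 and -0.16 for Nectin2. With 1 tumor left out, it ranged from -0.010 to 0.24 for Lag3, -0.059 to 0.10 for Lgals9, -0.26 to 0.10 for Cd80 and -0.035 to 0.12 for Pvr.

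Among all genes tested, an unadjusted p under 0.05 was counted for 1312 with voom, 992 without a filter, 446 with the replicate block, 325 without cryoablation replicates 2, 4 and 5, and between 252 (without cryoablation replicate 2) and 1388 (without cryoablation replicate 3) with 1 tumor left out. It was found for 1 to 2 of the 10 checkpoint genes with 1 tumor left out. In the wider list it was found for 3 genes with DESeq2, 4 with voom, 2 without a filter, 2 with the length offset, 0 with the replicate block, 0 without cryoablation replicates 2, 4 and 5, and 0 to 3 with 1 tumor left out.

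Of the 15 within-tumor differences, 0 had an adjusted p under 0.05. Without cryoablation replicates 2, 4 and 5, the difference was 0.0039 for Pdcd1 and 0.51 for Havcr2 against T cells, 0.56 for Cd274 against Pdcd1lg2, and 0.058 for Cd86, 0.35 for Havcr2 and 0.13 for Cd274 against macrophages. With the length trend removed, an alternative chosen after seeing the data, it was 0.058 for Cd274 against Pdcd1lg2 and 0.066 for Cd86 against macrophages. With 1 tumor left out, it ranged from -0.071 to 0.25 (Ctla4) and -0.19 to 0.17 (Havcr2) against T cells, from -0.12 to 0.29 for Ctla4 against Foxp3, -0.29 to 0.12 for Cd274 against Pdcd1lg2, -0.0017 to 0.19 for Cd80 minus Cd86, and from -0.098 to 0.047 (Cd86), -0.065 to 0.16 (Cd80) and -0.19 to 0.064 (Havcr2) against macrophages.

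Of the 30 relations with scores, 13 had an adjusted p under 0.05 by Pearson's r within the control tumors and 7 within the cryoablation tumors. By Spearman's rho these counts were 16 and 0. Without the 2 farthest tumors 12 did by Pearson's r and 12 by Spearman's rho. Without cryoablation replicates 2, 4 and 5 the counts were 21 and 21, and with the length trend removed 19 and 16. Within the cryoablation tumors, r was -0.19 for Cd274 and -0.18 for Havcr2 with T cells and -0.42 for Cd274 with macrophages. Within the control tumors it was -0.0046 for Lgals9 with T cells and 0.018 for Havcr2 with macrophages. Without the 2 farthest tumors it was, with macrophages, -0.14 for Cd274, -0.0028 for Ctla4 and -0.29 for Tigit. For Havcr2 with macrophages it was 0.14 without cryoablation replicates 2, 4 and 5 and 0.012 with the length trend removed. The causes of these changes were not tested. Low counts limit Ctla4 and Tigit most, at 11 to 163 and 18 to 136 reads a tumor.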
